A study of Rattus norvegicus with 9 samples.

Results

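Eph receptors and ephrins were described in the thalamus of young rats that ate either solid chow or powdered feed. The members were 10 genes: the receptors Epha3, Epha4, Epha5, Epha7, Ephb1, Ephb2 and Ephb3, and the ligands Efna5, Efnb2 and Efnb3. Every probe set that the platform annotation assigns to 1 of these symbols alone was taken, which gave 15 probe sets of 31042 rat probe sets, standing for 8 of the 14217 genes named in this way. Ephb2 and Efnb2 have no probe set under their symbols in that annotation and were not analysed here.

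The animals were male Wistar rats, 3 weeks old at the start and given as 5 weeks old in the labels, housed under 12 h of light and 12 h of dark. All of them first ate powder for 2 days. The rats were then split by weight, and 1 group received solid chow and the other kept the powder for 8 days. RNA of the thalamus was hybridised to 4 arrays for chow and 5 for powder. The groups thus differed in the form of the feed, and only the chow group changed feed after the first 2 days. The labels do not tie each array to a separate rat or say whether tissue was pooled, and p-values then measure only how these samples spread, which may in part be technical.

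Eph receptors are receptor tyrosine kinases that are activated by ephrins on the surface of neighbouring cells, and ephrins can in turn signal into the cell that carries them. A-type ephrins are held in the membrane by a lipid anchor, and B-type ephrins cross it. The A-type receptors prefer A-type ephrins and the B-type receptors B-type ephrins, with EphA4 binding both. In the developing thalamus, graded EphA receptors and ephrin-A5 guide axons to their cortical targets, and at mature synapses EphB receptors and EphA4 act on dendritic spines.

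A value is the deposited log2 expression of a probe set on 1 array, and a difference is the chow mean minus the powder mean. Differences were tested with limma over all rat probe sets and called at a Benjamini-Hochberg adjusted p under 0.05. Most probe sets varied very little between arrays in the deposited values. A probe set is named compressed where its 9 values span less than 0.01 log2 units, whatever the reason. This applied to 84.4% of all rat probe sets and to 8 of the 15 member probe sets, so the levels of Epha7, Ephb1, Ephb3 and Efna5 carry almost no size. Of the member genes, 4 had probe sets that were not compressed: Epha3, Epha5, Epha4 and Efnb3.

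Array chow 1 had the lowest mean of thalamic neuron markers and the highest mean of striatal neuron markers. These are 2 of 13 lists, picked with their values known. By Dixon's criterion for 1 far array, neither mean was flagged on chow 1. Flagged were chow 3 for choroid plexus and ependyma markers and powder 1 for meningeal fibroblast markers. The mean log2 value of 8 thalamic neuron markers (Tcf7l2, Slc17a6 and Prkcd among them) was 9.78 on chow 1, 10.18 to 10.45 on the other chow arrays and 10.28 to 10.39 on the powder arrays. The mean of 6 striatal neuron markers was 8.75 on chow 1, 7.74 to 7.93 on the other chow arrays and 7.73 to 7.85 on the powder arrays. Over 13 marker lists with 65 measured genes, 63 probe sets were not compressed, of which 2 were called higher under chow and 5 lower. Of all 4849 rat probe sets that were not compressed, 54.9% were called, 16.1% higher and 38.8% lower, a larger share than of the markers. The 5' minus 3' difference of the beta-actin control, a measure of RNA integrity and labelling, was -1.58 to -1.44 under chow and -1.70 to -1.55 under powder (difference 0.13, two-sided exact permutation p = 0.0238).

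Among the member probe sets that were not compressed, 1 of Epha3 and 1 of Epha5 were called, and they went in opposite directions. Epha3 was 0.85-fold under chow and Epha5 was 1.14-fold, and the 4 chow and 5 powder arrays did not overlap for either, as for 29.9% of all rat probe sets and 50.0% of those not compressed. None of the Epha4 probe sets or the Efnb3 probe set passed the test. Of the 7 member probe sets that were not compressed, 1 was higher, 1 lower and 5 not called, whereas 54.9% of all 4849 such probe sets were called, 16.1% higher and 38.8% lower. Over all 15 member probe sets 3 were higher and 1 lower, against 34.6% of all rat probe sets called, 17.9% higher and 16.7% lower. The median difference was -0.026 over the 7 and -0.11 over all 4849.

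Epha3, a receptor for ephrin-A5, was lower under chow. Its probe set 1385053_at read 7.45, 7.44, 7.52 and 7.61 on chow arrays 1 to 4. The powder arrays 1 to 5 read 7.80, 7.78, 7.65, 7.70 and 7.79. Every chow array was below every powder array, with the closest approach between chow 4 and powder 3. The difference was -0.24 ± 0.046 (SE, 95% interval -0.35 to -0.14, limma adjusted p = 0.00954). Over the 9 fits that each lacked 1 array it ranged from -0.28 to -0.22 and was called each time. With the beta-actin difference as a covariate it was -0.21 and not called (limma adjusted p = 0.136).

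The other Epha3 probe sets did not show this decrease. Probe set 1369379_at, the one designed on a RefSeq transcript, was compressed around 6.63 and called higher under chow with a difference of 0.00057 ± 0.00010 (limma adjusted p = 0.00756), and 1385082_at was compressed and not called. A median over the 3 probe sets of the gene gives no separate check. On every array it is the level of 1385082_at (mean 6.84), which lies between the others, and Epha3 was then not called.

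Epha5, a neuronal receptor for A-type ephrins, was higher under chow. Its 1 probe set, 1371007_at, read 8.51, 8.35, 8.31 and 8.36 on chow arrays 1 to 4. The powder arrays 1 to 5 read 8.17, 8.15, 8.15, 8.24 and 8.22. Every chow array lay above every powder array, and chow 1 was the highest of all. The difference was 0.19 ± 0.043 (SE, 95% interval 0.093 to 0.30, limma adjusted p = 0.0154). Without chow 1 it was 0.15 and still called (limma adjusted p = 0.0146), and it was called without each other array in turn. With the beta-actin difference as a covariate it was 0.20 and not called (limma adjusted p = 0.141). Lacking a second probe set, this difference could not be checked within the gene.

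**Figure D1:**
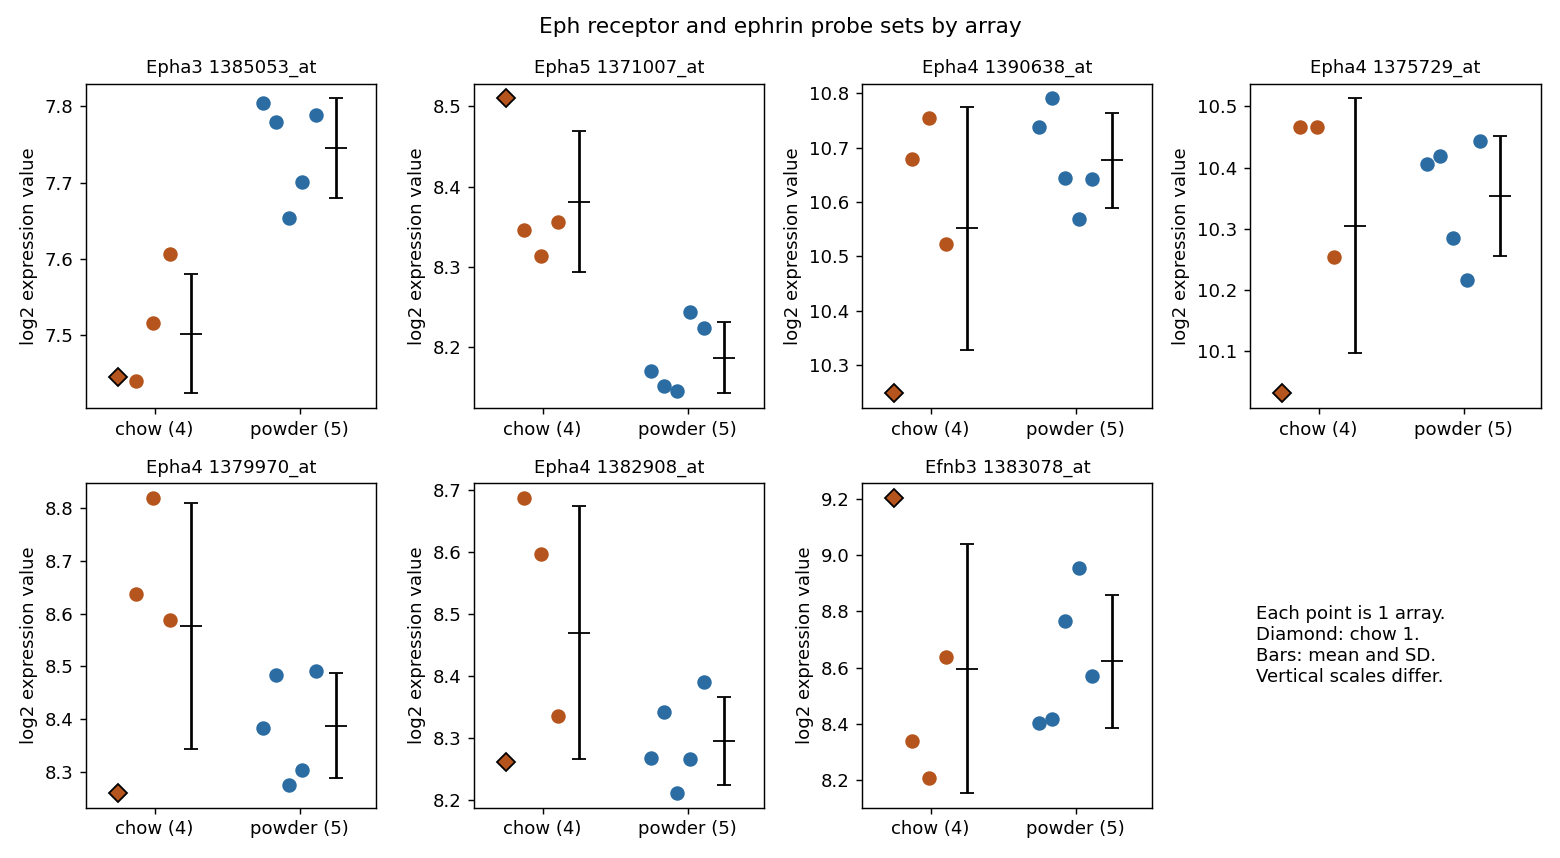
Log2 expression value (vertical axis, with its own scale in each panel) of the 7 member probe sets that were not compressed, on each of the 4 chow and 5 powder arrays. Bars are mean and SD, and the diamond is chow 1. The groups do not overlap for Epha3 1385053_at and Epha5 1371007_at and overlap in the other panels.

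Epha4, the receptor that binds both ephrin classes and is abundant in brain, had 4 probe sets, all of them not compressed. Their diet differences were -0.13 ± 0.105 for 1390638_at, -0.049 ± 0.101 for 1375729_at, 0.19 ± 0.111 for 1379970_at and 0.17 ± 0.093 for 1382908_at, with limma adjusted p from 0.175 to 0.720. The 95% intervals were -0.37 to 0.12, -0.28 to 0.19, -0.070 to 0.45 and -0.044 to 0.39. Each interval includes 0, so the level of Epha4 was not shown to differ, and differences of about the size seen for Epha3 and Epha5 lie within every interval in at least 1 direction.

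On 1390638_at the chow arrays 1 to 4 read 10.25, 10.68, 10.76 and 10.52 and the powder arrays 1 to 5 read 10.74, 10.79, 10.64, 10.57 and 10.64. On 1375729_at the values were 10.03, 10.47, 10.47 and 10.25 under chow and 10.41, 10.42, 10.28, 10.22 and 10.44 under powder. On both, chow 1 was the lowest of the 9 arrays and the other chow arrays fell among the powder arrays, or slightly below or above them.

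On 1379970_at the chow arrays 1 to 4 read 8.26, 8.64, 8.82 and 8.59 and the powder arrays 1 to 5 read 8.38, 8.48, 8.27, 8.30 and 8.49. On 1382908_at the values were 8.26, 8.69, 8.60 and 8.34 under chow and 8.27, 8.34, 8.21, 8.27 and 8.39 under powder. Chow 1 was the lowest chow array on all 4 probe sets, and on 1379970_at the other chow arrays all lay above the powder arrays.

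Of all arrays, chow 1 moved 1390638_at, 1375729_at and 1379970_at most when left out, and chow 2 moved 1382908_at most (to 0.10). Without chow 1, 1379970_at was at 0.29 and called higher (limma adjusted p = 0.0353), 1382908_at was at 0.24 and not called (0.0757), 1390638_at was at -0.025 (0.806) and 1375729_at turned to 0.042 (0.687). Over the 9 arrays left out in turn, 1379970_at was called this 1 time and the other 3 probe sets never. On 3 of the 4 probe sets the lowest Epha4 value of the 9 arrays was on chow 1, which also had the lowest thalamic marker mean, and the part of that array's composition in the result was not tested. In bulk tissue, fewer cells of a type and less RNA per cell cannot be told apart.

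**Figure D2:**
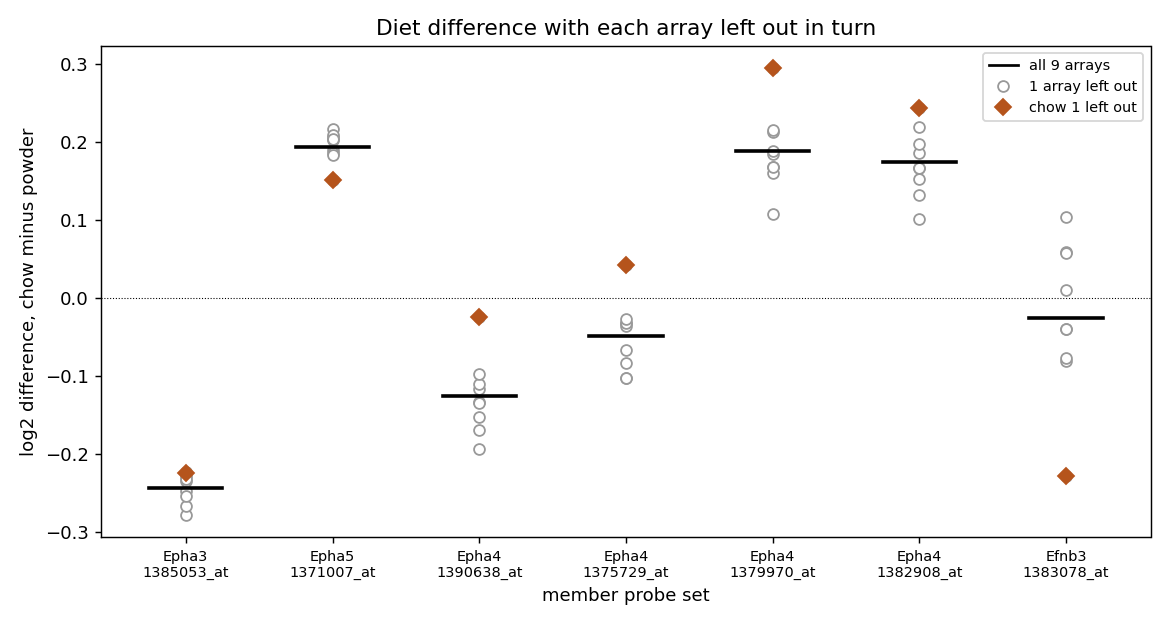
Log2 difference, chow minus powder (vertical axis), for each of the 7 member probe sets over all 9 arrays (black bar), with 1 array left out (open circles) and without chow 1 (diamonds). Epha3 stays between -0.28 and -0.22 and Epha5 between 0.15 and 0.22, while without chow 1 Epha4 1379970_at moves from 0.19 to 0.29 and Efnb3 from -0.026 to -0.23.

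Pairs of Epha4 probe sets differed in their diet difference, which was also common among other genes, and no Epha4 probe set was itself called over all arrays. To compare them within arrays, the brighter probe set was subtracted from the dimmer one on each array, and chow was set against powder by a two-sided exact permutation test whose smallest possible p is 0.00794, adjusted over 17 such pairs from 8 genes. Differences within an array are free of any shift common to the whole array. In 4 of the 6 Epha4 pairs the groups did not overlap, as in 7 of the 11 pairs from partner genes and in 47.5% of all 636 pairs of probe sets of 1 gene that were not compressed. The 6 pairs share 4 probe sets, so they are not independent of each other.

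The difference 1379970_at minus 1390638_at was -1.99, -2.04, -1.94 and -1.93 on chow arrays 1 to 4 and -2.35, -2.31, -2.37, -2.26 and -2.15 on powder arrays 1 to 5. The chow mean exceeded the powder mean by 0.31 (exact permutation p = 0.00794, adjusted p = 0.0150). Chow 1 lay among the other chow arrays here, unlike in the levels themselves.

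The change was 0.30 for 1382908_at minus 1390638_at (exact permutation p = 0.00794, adjusted p = 0.0150), 0.24 for 1379970_at minus 1375729_at (the same p-values) and 0.22 for 1382908_at minus 1375729_at (exact permutation p = 0.0159, adjusted p = 0.0245). So each of the 2 dimmer probe sets was higher under chow relative to each of the 2 brighter ones. Within the brighter pair the change was 0.077 (exact permutation p = 0.111, adjusted p = 0.135), or 0.11 without powder 5 (exact permutation, adjusted p = 0.0405), and within the dimmer pair it was -0.015 (exact permutation p = 0.849, adjusted p = 0.849).

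When each array was omitted once, 3 of these 4 differences had adjusted p of at most 0.0442, and the one between 1382908_at and 1390638_at reached 0.0552 without chow 1 or chow 2. The part of the beta-actin 5' to 3' shift in these differences was not tested. Where on the transcript the 4 probe sets lie is not given in the sources used here.

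**Figure D3:**
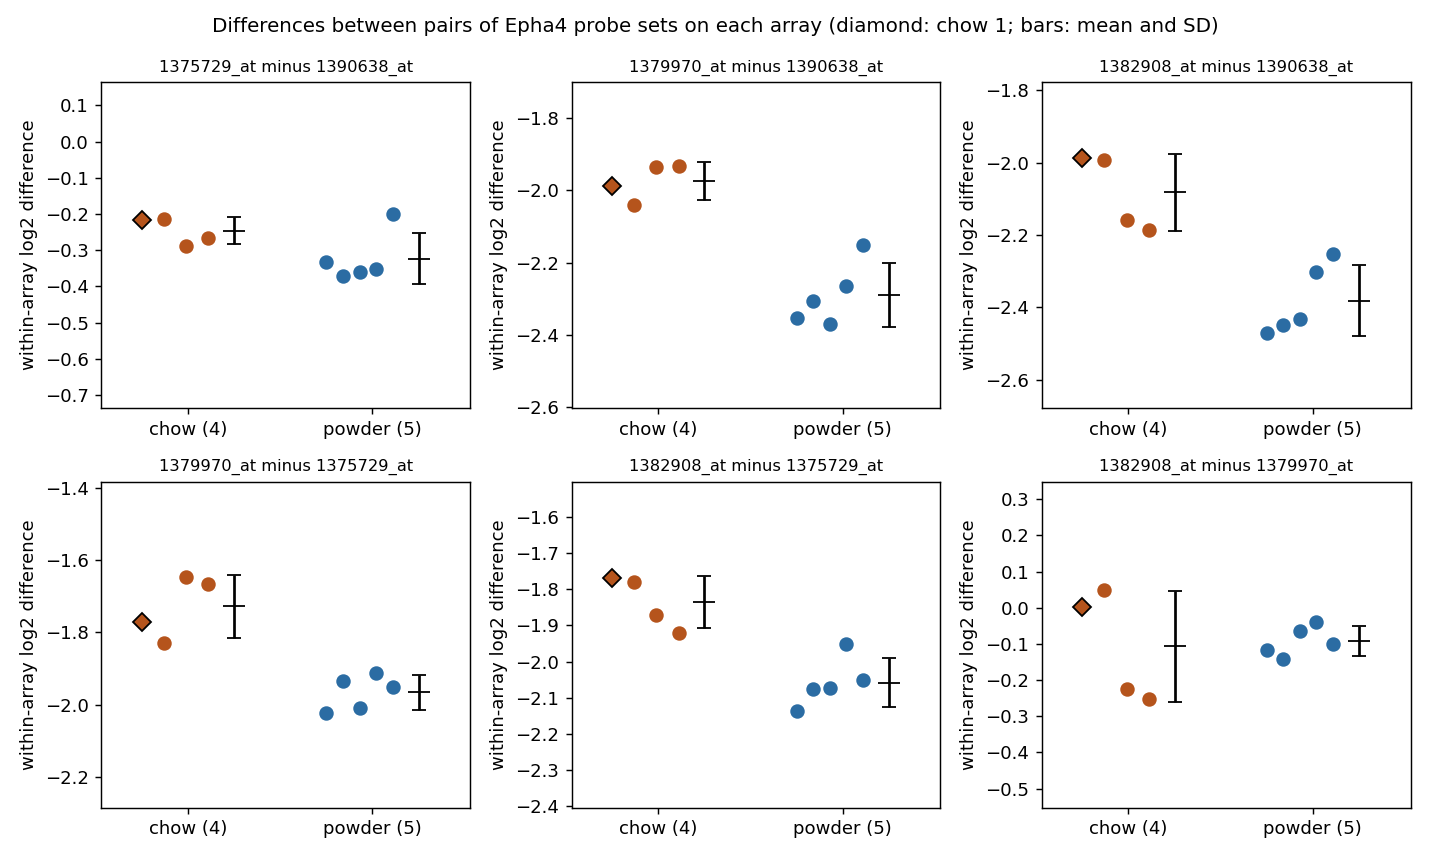
Within-array log2 difference between 2 Epha4 probe sets (vertical axis, the same height of scale in each panel) for the 6 pairs, on 4 chow and 5 powder arrays, with mean and SD. The groups separate in the 4 panels that set a dimmer probe set against a brighter one, with chow higher by 0.22 to 0.31, and overlap in the other 2 panels.

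Efnb3, a transmembrane ephrin that binds EphB receptors and EphA4, varied more between arrays than between diets. Its probe set 1383078_at read 9.20, 8.34, 8.20 and 8.64 on chow arrays 1 to 4 and 8.40, 8.42, 8.77, 8.96 and 8.57 on powder arrays 1 to 5. Chow held both the highest and the lowest value. The difference was -0.026 ± 0.222 (95% interval -0.55 to 0.49, limma adjusted p = 0.935), which leaves room for differences larger than those of Epha3 and Epha5. Without chow 1 it was -0.23 (limma adjusted p = 0.317), and over the arrays left out in turn it ranged from -0.23 to 0.10, was above 0 in 4 of 9 cases and was never called.

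The arrays with much Efnb3 were also those with high means of hypothalamic and interneuron markers, 2 lists singled out after their values had been seen. Chow 1, powder 4, powder 3 and chow 4 were the 4 highest arrays in all 3 measures. These arrays were also the 4 highest for striatal neuron markers, at 8.75, 7.84, 7.85 and 7.93, against 7.73 to 7.80 on the others. Their means over 6 hypothalamic markers were 8.70, 8.70, 8.51 and 8.73, against 7.27 to 7.95 on the other 5 arrays. Their means over 5 markers of reticular and local interneurons were 9.81, 9.39, 9.32 and 9.42, against 8.97 to 9.24 on the others. Pvalb, 1 of these 5 markers, did not follow the mean. It read 9.07, 9.45, 9.34 and 9.42 on the 4 arrays, against 9.39 to 9.68 on the others. The part of neighbouring tissue in the spread of Efnb3 was not tested.

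**Figure D4:**
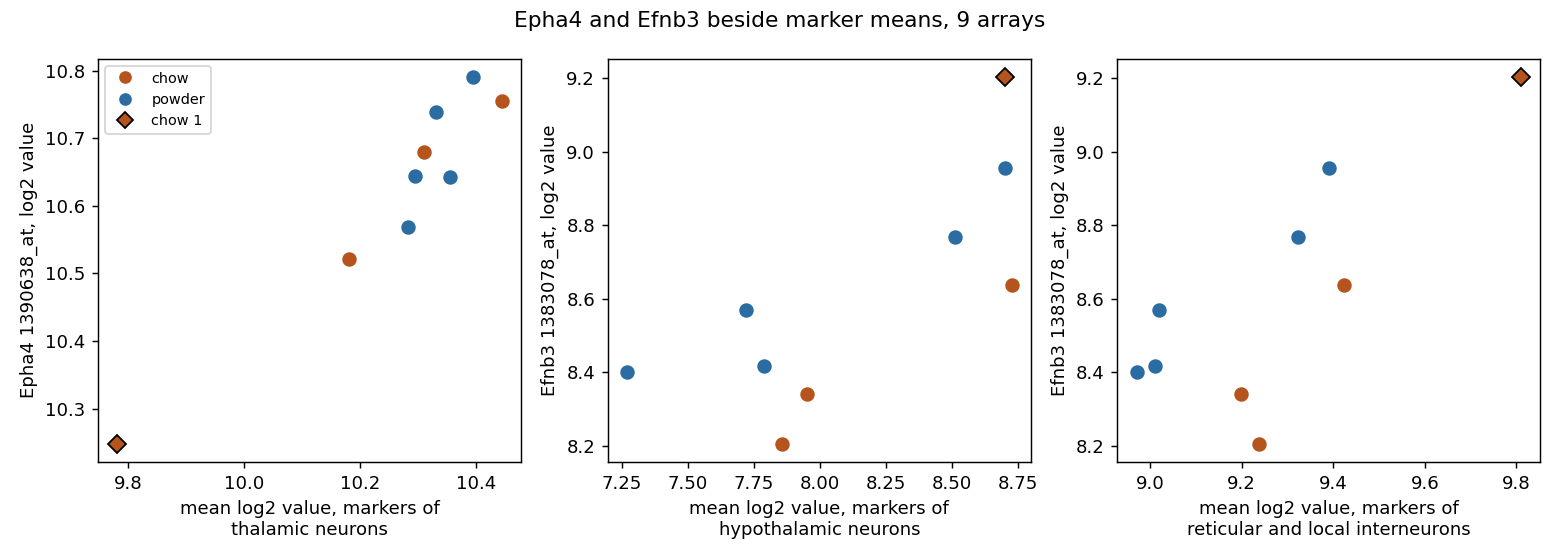
Left, log2 value of Epha4 1390638_at (vertical axis) against the mean log2 value of thalamic markers on each of the 9 arrays. Centre and right, Efnb3 1383078_at against the means of hypothalamic and of interneuron markers. Chow 1 (diamond) has the lowest Epha4 value, 10.25, and the highest Efnb3 value, 9.20.

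The remaining member probe sets were all compressed, with differences from -0.00050 to 0.00057 and spans of at most 0.0016 log2 units. Efna5, the ligand of the EphA receptors named above, had 2 of them. Its probe set 1369594_at was called higher under chow at 0.00018 (limma adjusted p = 0.0400) with overlapping groups, and it lost its call when chow 1 or 3 or powder 1, 2, 3 or 5 was left out (limma adjusted p up to 0.0901). The other, 1375647_at, was not called. Epha7, another receptor for ephrin-A5, with 2 probe sets, and the B-type receptors Ephb1 and Ephb3 with 1 each were not called (limma adjusted p from 0.170 to 0.449). On such values a call carries almost no size, and no size can be set for the diet difference of these genes.

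Taking 1 probe set per gene, that of highest mean, Epha5 was called higher and Epha3 lower of the 8 member genes, whereas 32.9% of all 14217 genes were called, 14.2% higher and 18.8% lower.

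Of the other 12 Eph and ephrin genes, 9 had a probe set and Epha1, Efna2 and Efna3 had none under their symbols. Their 11 probe sets gave 3 higher and 0 lower calls, with a median difference of 7.9e-06, and 10 of them were compressed. The 0 lower calls come from limma, by which 1 of the 8 probe sets not called, of Efna1, had an unadjusted p under 0.05 (0.0367, difference -0.00022). The 1 probe set that was not compressed belongs to Epha6, an A-type receptor of neurons. It read 7.69, 7.61, 7.64 and 7.59 on chow arrays 1 to 4 and 7.53, 7.57, 7.60, 7.56 and 7.56 on powder arrays 1 to 5, with powder 3 above chow 4. The difference was 0.070 ± 0.023 (limma adjusted p = 0.0494), and it was called in 1 of 9 cases with 1 array left out (limma adjusted p up to 0.0993). The other 2 calls, of Efna4 and Efnb1, were compressed (0.00020 and 0.00056).

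Genes that carry Eph and ephrin signals into the cell were measured with 97 probe sets for 45 of 46 listed partners and effectors. Of these, 17 were higher and 18 lower, and their median difference was 1.8e-05. Of the 30 that were not compressed, 8 were higher and 7 lower, with a median of 0.0010, against 16.1% higher and 38.8% lower of all such probe sets. In 14 of the 30 the arrays of the diets were fully separated, against 50.0% of all such probe sets.

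Among the cytoskeletal effectors, Rac1, the GTPase that drives actin branching, was higher under chow (10.05 ± 0.140 and 9.71 ± 0.110, SD, n = 4 and 5, difference 0.34 ± 0.081, limma adjusted p = 0.0183). On chow arrays 1 to 4 it read 10.17, 9.91, 10.17 and 9.94, all above the powder arrays at 9.67, 9.57, 9.71, 9.87 and 9.72. Chn2, beta-chimaerin, a Rac-inactivating protein, was also higher, at 0.28 ± 0.061. Tiam1, a Rac activator recruited by Eph receptors, was lower, at -0.22 ± 0.052. Other probe sets of these genes were compressed. Rac1 1388332_at (limma adjusted p = 0.337) and Chn2 1376800_at (0.111) and 1394833_at (0.201) were not called. Of Tiam1, 1377591_at was called higher at 0.00039 (limma adjusted p = 0.0183), and 1374257_at and 1381167_at were not called. So on the probe sets that were not compressed, a Rac GTPase, an inactivator and an activator were called in different directions.

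Among proteins that bind the receptors, Cbl, a ubiquitin ligase of receptor tyrosine kinases, was higher (8.02 ± 0.050 and 7.74 ± 0.032, SD, difference 0.28 ± 0.026, limma adjusted p = 0.00183). Its chow arrays read 8.08, 8.04, 8.01 and 7.96 and its powder arrays 7.74, 7.72, 7.77, 7.70 and 7.78, which do not overlap. The other Cbl probe sets were compressed. Of them, 1375732_at and 1380069_at were called higher, and 1388505_at was not called (-0.00016, limma adjusted p = 0.0518). Anks1a, an adaptor that binds Eph receptors, and its relative Anks1b, a postsynaptic protein, were lower at -0.23 ± 0.039 and -0.24 ± 0.052, while a second Anks1b probe set was at 0.0065 and not called. Grb2, an adaptor to the Ras pathway, was called at 0.0079, on a probe set whose 9 values span 0.012, just above the limit for compression. It was at 0.032 after quantile normalization, and it was not called when compressed probe sets were left out before the fit (limma adjusted p = 0.677).

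Of the 15 called partner probe sets that were not compressed, 1, that of Cbl, was kept with the beta-actin covariate (0.31, limma adjusted p = 0.0283). There, Rac1 was at 0.15 (0.317), Tiam1 at -0.21 (0.178), Chn2 at 0.18 (0.231), Anks1a at -0.22 (0.0922) and Anks1b at -0.13 (0.231). Itsn2 was at -0.33 on 1393625_at (0.0501), 0.27 on 1395799_at (0.0793) and 0.29 on 1382551_at (0.191). Wasl was at -0.29 on 1373842_at (0.0677) and 0.14 on 1391625_at (0.220). Crk was at -0.13 on 1374536_at (0.0778), -0.046 on 1392462_at (0.0678) and 0.12 on 1369912_at (0.341), and Grb2 was at 0.0048 (0.123).

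Itsn2, Crk and Wasl each had probe sets called in opposite directions. Itsn2, an exchange factor and endocytic scaffold, was higher on 1395799_at (0.31 ± 0.045) and 1382551_at (0.25 ± 0.077) and lower on 1393625_at (-0.32 ± 0.041). The difference 1395799_at minus 1393625_at was -0.10, -0.37, -0.19 and -0.18 on chow arrays 1 to 4 and -0.85, -0.96, -0.81, -0.85 and -0.71 on powder arrays 1 to 5 (change 0.63, exact permutation p = 0.00794, adjusted p = 0.0150). For 1382551_at the call held without powder 5 and not without each of the other 8 arrays (limma adjusted p up to 0.0964).

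Crk, an adaptor, was higher on 1369912_at (0.26 ± 0.063) and lower on 1374536_at (-0.10 ± 0.022) and 1392462_at (-0.040 ± 0.0069). The last of these was at -0.010 after quantile normalization (limma adjusted p = 0.309) and was not called when compressed probe sets were left out (limma adjusted p = 0.0643). Wasl, which links Cdc42 to actin, was higher on 1391625_at (0.16 ± 0.040) and lower on 1373842_at (-0.23 ± 0.047), and the first of these was not called without chow 1 or chow 2 (limma adjusted p up to 0.0524). As for Epha4, a single direction of change can therefore not be given for these genes, and 7 of the 11 pairs from partner genes passed the test of unequal change.

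Ngef, the exchange factor ephexin that EphA4 activates toward RhoA, was singled out after its values had been seen. Its probe set read 8.96, 8.01, 7.73 and 8.13 on chow arrays 1 to 4 and 7.96, 7.88, 8.18, 8.07 and 7.99 on powder arrays 1 to 5. Chow 1 was the highest of the 9 arrays, as for the striatal markers. The difference was 0.19 ± 0.233 over all arrays (limma adjusted p = 0.534) and -0.061 without chow 1.

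**Figure D5:**
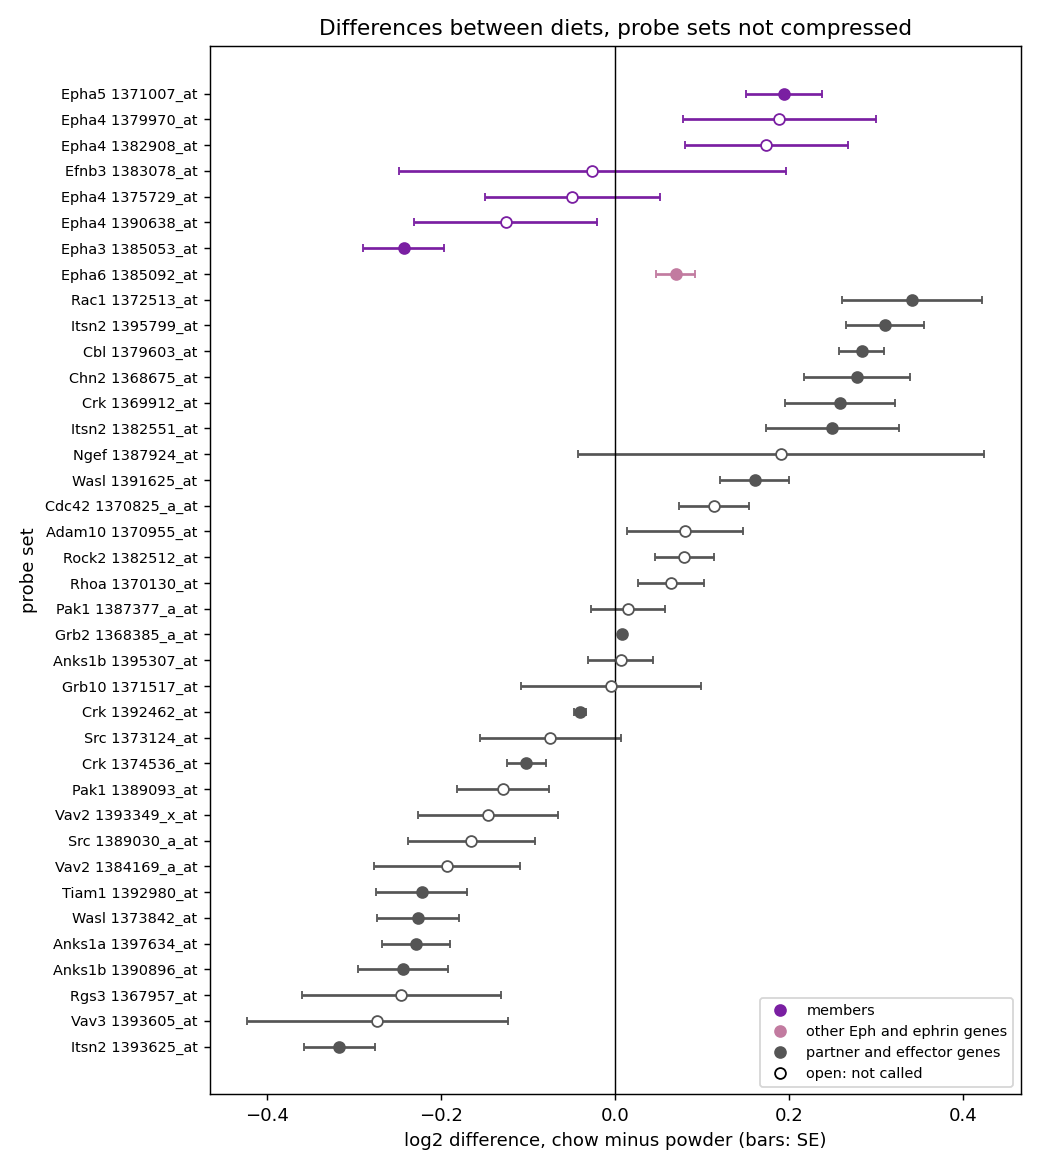
Log2 difference, chow minus powder, with SE (horizontal axis) for the 38 probe sets of the 3 gene lists that were not compressed. Filled points were called and open points were not. Epha5 and Epha3 are the filled member points, at 0.19 and -0.24, and Itsn2, Crk and Wasl each have filled points on both sides of 0.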

How the data were processed

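The deposited table holds 1 value per probe set and array, on what its range (5.37 to 14.05) shows to be a log2 scale, as the authors made it. Software, background correction, summarisation, centring and any compression are not stated in any source used here. Array medians were 7.391 to 7.396 under chow and 7.398 to 7.402 under powder, without overlap. Subtracting them shifted the differences by a median of 0.0066, against a median absolute difference of 0.00020 over all rat probe sets. The values were used as deposited, and the calls after scaling are given below. Correlations between arrays ranged from 0.991 to 0.999. Detection calls were not used here, and the number of arrays limits the precision.

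Per the labels' protocols, biotin-labelled cRNA was made from 100 ng of total RNA. Titles gave each sample's group and number. The study used 10 rats per the labels, and 9 samples are described. After 57 control probe sets were left out, limma 3.58.1 (R 4.3.3; lmFit and eBayes, no covariate) was fitted over 31042 probe sets, with steps tested on simulated data. Probe sets were named from the platform annotation (20826 with 1 symbol, 436 with several, 9780 with none listed), and all 62 symbols of the 3 lists were in the RefSeq gene table of GRCr8. No probe or protein sequences were used here.

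The members and lists were chosen with earlier results of these data known. Named were all members, other Eph and ephrin genes with a called probe set not compressed, up to 8 such partners in each direction by size, and up to 2 such markers per list. Slc17a6 and Prkcd are named only as examples of their list, and Pvalb for its difference from its list mean. Alternatives were quantile normalization, subtraction of array medians, a trended robust variance, leaving out the dimmest 25% or the compressed probe sets, array weights, a replicate block, a beta-actin covariate, the median over probe sets, and leaving out each array. The replicate numbers do not pair the samples: deviations of same-numbered arrays correlated at -0.31, 0.19, -0.33 and -0.16.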

Additional observations from a re-analysis of the deposited data

Results flagged for a closer look

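In 8 of 86 groups of 4 or 5 values, 1 array lay far from the others by Dixon's criterion, where chance gives about 1 in 20. Of the Epha4 differences, 1375729_at minus 1390638_at was -0.20 on powder 5 and -0.37 to -0.33 on the other powder arrays. Wasl 1373842_at was 9.46 on chow 2 and 9.61 to 9.63 on the other chow arrays. Wasl 1391625_at was 9.11 on chow 4 (9.20 to 9.21 on the others) and 8.90 on powder 1 (9.02 to 9.07). Anks1b 1390896_at was 10.10 on chow 1 (10.19 to 10.20) and Itsn2 1395799_at was 7.49 on chow 2 (7.58 to 7.59). The mean of choroid plexus and ependyma markers was 7.70 on chow 3 (7.37 to 7.43), and that of meningeal fibroblast markers was 8.37 on powder 1 (7.59 to 7.73).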

How the results depend on the processing

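Scaling moved the compressed probe sets. After quantile normalization and with array medians subtracted, calls numbered 7 and 10 of the 15 member probe sets (4 as deposited), 5 and 11 of the other Eph and ephrin probe sets (3), 64 and 84 of the partner probe sets (35) and 17464 and 29347 of all rat probe sets (10753). The higher and lower calls of all rat probe sets were then 15610 and 1854, and 27206 and 2141. Those of partners were 58 and 6, and 77 and 7. Among the 7 member probe sets that were not compressed, 2 were called under both scalings. Leaving out the dimmest 25% gave 2 member calls. Leaving out the compressed probe sets gave 2 member, 1 other Eph and ephrin, 14 partner and 2884 calls in all. The median over probe sets gave 1 member gene called.

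With the beta-actin covariate there were 0 calls among all members, among the 7 that were not compressed and among the other Eph and ephrin genes, 2 among partners, 1 among the 30 partner probe sets not compressed and 1429 of all rat probe sets, and Epha4 1375729_at turned to 0.022. The replicate block, with powder 5 left out, gave 0 calls for members (all and not compressed), other Eph and ephrin genes and partners (all and not compressed) and 19 of all rat probe sets. Own numbers were the best match for 0 of the 4 chow arrays. There Epha3 1385053_at was at -0.23 (limma adjusted p = 0.109) and Epha5 at 0.20 (0.0872).

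With 1 array left out, calls ranged from 3 to 4 for members, 2 to 3 for those not compressed, 2 to 3 for other Eph and ephrin genes, 29 to 38 for partners, 13 to 15 for partners not compressed, 7567 to 9578 for all rat probe sets and 10 to 12 of 17 pairs. Epha4 1375729_at ranged from -0.10 to 0.042, Efnb3 from -0.23 to 0.10 and Ngef from -0.061 to 0.35.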
